A study of Mus musculus with 2 samples.

Results

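Molecular chaperones of aged mouse muscle were examined here in long-read RNA libraries of the gastrocnemius, the large calf muscle. The members were the annotated protein-coding genes named for small heat shock proteins (Hspb genes and Cryab), HSP70 and HSP110 (Hspa genes and Hsph1, without the Hspa12 genes), HSP90, the chaperonin of mitochondria (Hspd1 and Hspe1), the cytosolic chaperonin TRiC (Tcp1 and Cct genes), J-domain proteins (Dnaja, Dnajb and Dnajc genes), BAG proteins (Bag1 to Bag6), and the myosin chaperones Unc45b and Smyd1. Names alone set the members and no measured value entered the rule, but it was chosen with earlier results of these data known. In GENCODE M21, 88 genes matched, and 78 of them held reads, out of 14451 annotated genes with reads. No read was found in either library for Dnajb3, Dnajb7, Dnajb8, Dnajb13, Dnajc5b, Dnajc5g, Dnajc6, Cct6b, Cct8l1 and Hspb9. A count of 0 allows up to 2.68 CPM (CPM is the count scaled to a library of 1e6 reads of annotated genes) in replicate 1 and 3.07 CPM in replicate 2. Cct6a, the remaining subunit gene of TRiC, carries the type processed transcript in this annotation and so fell outside the rule; it held 177 and 147 reads.

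Both libraries came from female B6CASTF1/J mice, hybrids of the C57BL/6J and CAST/EiJ strains, aged 18 to 20 months, and each started from 2 µg of RNA. They are labelled biological replicates 1 and 2 of 1 group, but the labels give 1 donor record for both, so a difference between them may be technical, and p-values compare these libraries alone. There was no second age, treatment, sex or tissue, and the only comparison was of 1 library with the other. Replicate 1 held 1117891 reads of annotated genes and replicate 2 held 975696. Markers of skeletal muscle took 297558 and 342074 CPM, and 7 markers of heart took 1 and 5 reads, with Nppa, Nppb, Tnni3, Myl7 and Ryr2 at 0. Slow-fibre markers stood at 881 CPM in replicate 1 and 5748 CPM in replicate 2, and 12 of the 12 tested were called higher in replicate 2 by the test given below. Of 14 fast-fibre markers, 7 were called higher in each library, Myh1 and Myh2 among those of replicate 2 and Tnni2 and Tpm1 among those of replicate 1. Transcripts of the 7 higher in replicate 1 ran from 345 to 1208 nt, and those of the 7 higher in replicate 2 from 1847 to 6083 nt. The part of transcript length in this split was not tested. The part of fibre type in the results below was not tested. Summed markers of macrophages, red blood cells, Schwann cells, adipocytes and tendon cells reached 66.2 to 225 CPM in replicate 1 and 30.7 to 134 CPM in replicate 2, higher in replicate 1 for each list. Fibroblast markers summed to 2328 and 2086 CPM, with Col1a1, Col1a2 and Col3a1 called higher in replicate 2 and Dcn and Gsn in replicate 1. Smooth muscle and pericyte markers summed to 3834 and 3604 CPM, with Rgs5 and Pdgfrb called higher in replicate 2. That list includes desmin (Des), which muscle fibres also express, so its sum is not a level of smooth muscle and pericytes alone. In whole tissue, fewer cells of a type and less RNA per cell cannot be told apart.

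Chaperones bind unfolded or partly folded proteins and keep them from clumping. Small heat shock proteins hold such clients without using ATP. HSP70 binds and releases them in cycles driven by ATP, with J proteins delivering clients and BAG proteins acting as exchange factors, HSP90 completes the folding of kinases and receptors, and the barrel-shaped chaperonins enclose whole proteins such as actin and tubulin. Muscle adds dedicated helpers for myosin, and its small heat shock proteins guard the stretched Z disc and the filaments around it.

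The 78 genes together took 9666 reads in replicate 1 and 8370 in replicate 2, or 8647 and 8578 CPM (8613 ± 48.2, SD, n = 2), which is 0.865% and 0.858% of the reads. Each long read stands for 1 cDNA molecule, so CPM was not divided by transcript length. The chance that a long molecule was read whole was not measured, and orders between genes of unlike length carry that limit. Of the members, 23 stood above 100 CPM in both libraries and 13 below 10 CPM in both. The 10 highest genes took 51.5% of member reads in replicate 1 and 55.2% in replicate 2. By class, HSP70 summed to 1502 ± 129 CPM, small heat shock proteins to 1340 ± 126 CPM and HSP90 to 1222 ± 34.3 CPM (mean ± SD, n = 2, as for every level below). HSP70 and the small heat shock proteins overlapped between libraries, and HSP90 lay just under both. TRiC followed with 938 ± 238 CPM and Dnajc genes with 789 ± 20.4 CPM, also within reach of each other.

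The myosin chaperones summed to 629 ± 116 CPM from 2 genes. Dnajb genes (582 ± 19.8 CPM), BAG genes (582 ± 31.3 CPM) and Dnaja genes (551 ± 41.4 CPM) did not differ beyond their spread. The mitochondrial chaperonin held 346 ± 13.0 CPM and HSP110 held 131 ± 11.3 CPM. The class Known, a complete match to an annotated chain of introns, took 85.9% of member reads in replicate 1 and 85.8% in replicate 2. Over all reads of annotated genes it took 63.6% and 59.3%. Highly read genes weigh most in that background, Atp2a1 alone with 169580 of 1117891 reads in replicate 1. Whether members differ from a typical gene in this share was not tested.

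**Figure D1:**
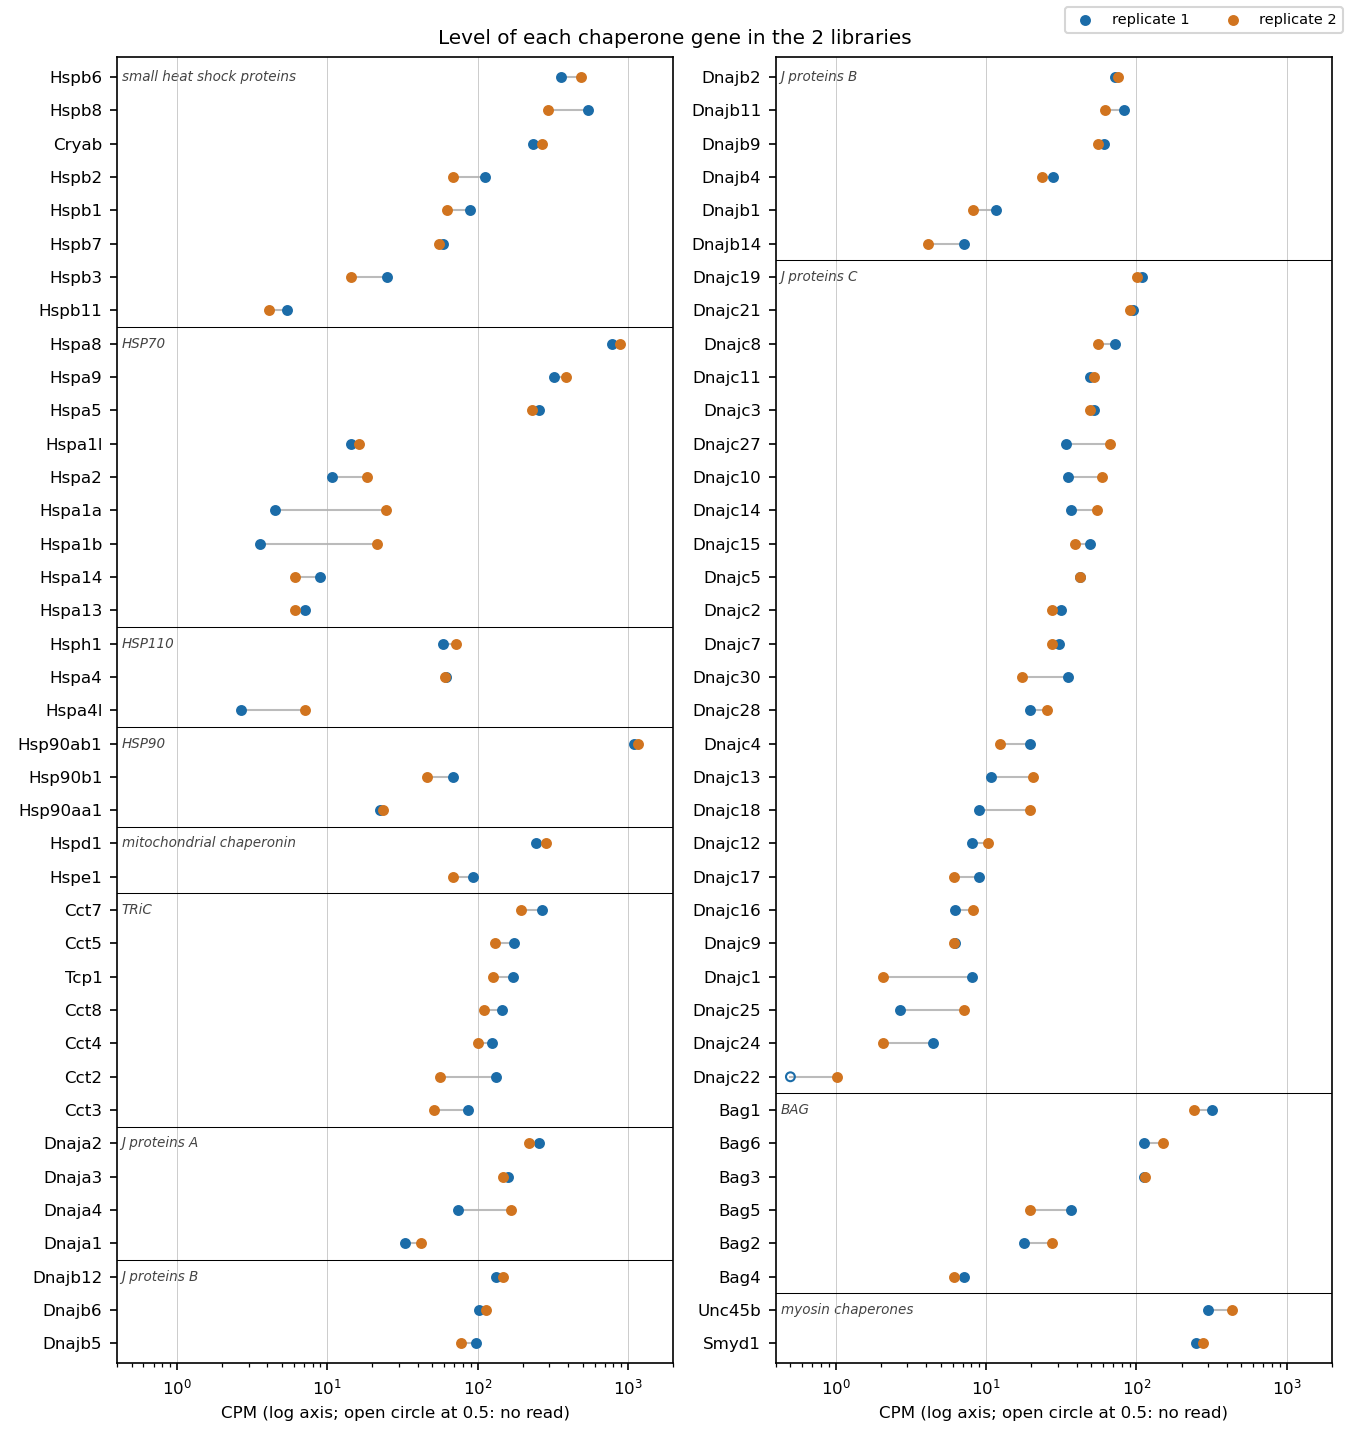
Level of each of the 78 genes in CPM (log axis) in replicate 1 (blue) and replicate 2 (orange), grouped by class. Hsp90ab1 and Hspa8 are highest, and the widest gaps between libraries are at Hspa1a and Hspa1b.

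Between the libraries, the split of each gene's reads was set against the split of the scaled library sizes. The test was the exact binomial (2-sided), its p-values were adjusted by the Benjamini-Hochberg method over the 8394 genes with at least 10 reads, and the threshold was 0.05. Of the 76 members tested, replicate 1 was the higher for 3 and replicate 2 for 12; over all genes tested, 4.61% and 7.06% were called in these directions. The log2 ratio, always taken as replicate 1 over replicate 2, had a median of -0.03 for the members and -0.00 for all genes. Scaling by total reads moved the median of all genes to 0.11 and the split to 6 members higher in replicate 1 and 6 in replicate 2. It added Cct7, Cct3 and Bag1, and it lost Hspa8, Hspa9, Hsp90ab1, Hspd1, Dnajc10 and Bag6. This test knows counting error only. With the scatter between the libraries added (edgeR exact test), 0 members were called in either direction, against 0.0953% and 0.191% of all genes tested. That scatter was estimated from the difference between these same 2 libraries. Few calls could therefore arise, and a call lost under it does not show that a difference is absent. The word called below refers to the exact binomial test alone.

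Length moved with these differences. Over all genes, the median log2 ratio fell from 0.35 for transcripts under 1000 nt to -0.36 for those of 5000 nt or more. Members followed in part: 7 of 8 members under 1000 nt and 10 of 13 from 1000 to 2000 nt lay above 0, 18 of 21 from 3000 to 5000 nt lay below 0, and those of 5000 nt or more were split 4 above and 6 below. Over all genes, 647 of 875 under 1000 nt and 1308 of 1946 from 1000 to 2000 nt lay above 0. Below 0 lay 1572 of 2449 from 3000 to 5000 nt and 891 of 1244 of 5000 nt or more. When the expected ratio followed length, 2 members were called higher in replicate 1 and 9 in replicate 2, beside 3.06% and 5.59% of all genes. Hspb2, Hspa9, Dnajc27, Dnajc10 and Bag6 then lost their calls, and Cryab gained one.

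**Figure D2:**
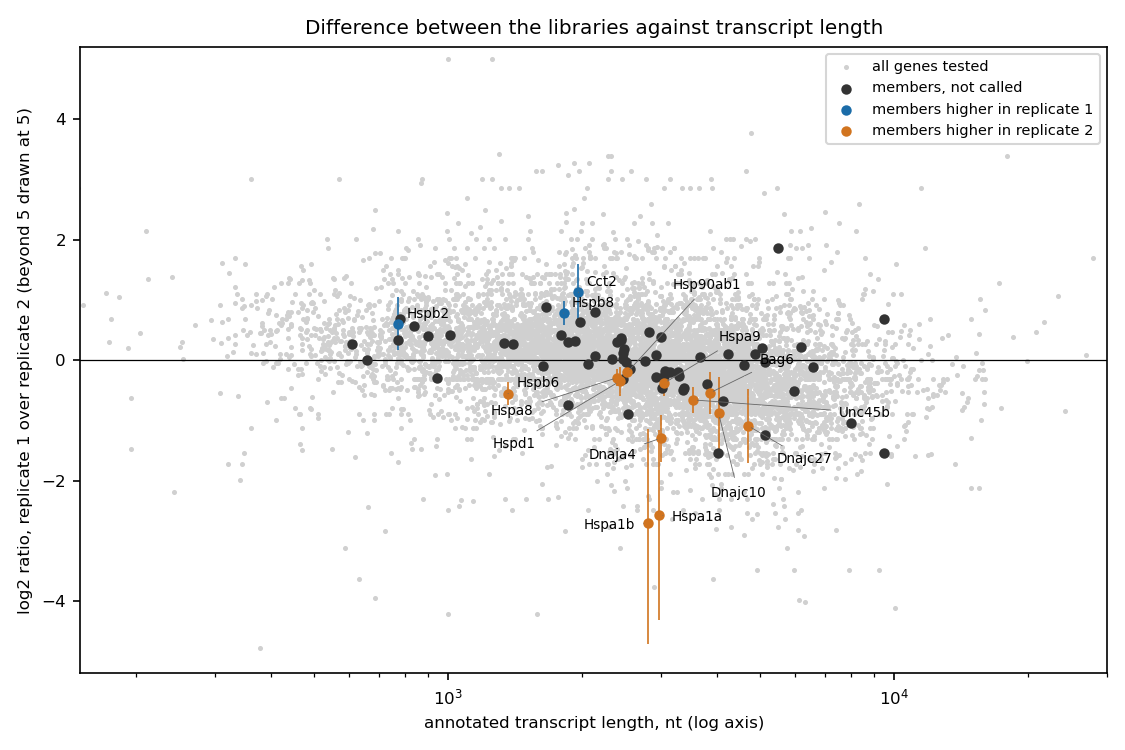
Log2 ratio of replicate 1 over replicate 2 against annotated transcript length (log axis) for all tested genes with reads in both libraries (grey) and for members, with exact 95% intervals on called members. Genes under 2000 nt lie mostly above 0 and genes over 3000 nt mostly below it, while Hspa1b (-2.70) and Hspa1a (-2.57) are the lowest members. Ratios beyond 5 are drawn at 5, and genes without reads in 1 library are left out.

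Among the small heat shock proteins, Hspb6 and Hspb8 were the most abundant. Hspb6, also called HSP20, read at 359 CPM in replicate 1 and 487 CPM in replicate 2, which was 1.47-fold higher in replicate 2 (95% interval 1.28 to 1.68, adjusted p = 5.07e-07). Hspb8, which works with Bag3 in the clearance of damaged Z-disc proteins, went the other way, with 544 and 292 CPM, 1.72-fold higher in replicate 1 (1.49 to 1.99, adjusted p = 8.01e-13). These were opposite differences in genes of like level and class, and both kept their calls under each alternative tried other than added scatter. Cryab, the αB-crystallin that protects desmin, stood at 235 and 268 CPM and was not called (adjusted p = 0.112). With the length trend it was called higher in replicate 2 (log2 ratio -0.59, adjusted p = 0.000142).

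Hspb2, the neighbour of Cryab on the opposite strand of chromosome 9, read at 113 and 68.7 CPM. Its 1.52-fold higher level in replicate 1 (1.12 to 2.07) sat at the threshold itself, with an adjusted p of 0.04998, and the call was lost under 6 of 9 alternatives. The annotated spans of Cryab and Hspb2 overlap, and their log2 ratios were of opposite sign (-0.30 and 0.60). Hspb1, known as HSP25 in mice, was not called at 89.5 and 62.5 CPM. Hspb7 (59.0 and 55.3 CPM) and Hspb3 (28 and 14 reads), both largely restricted to heart and muscle, followed, and Hspb11 held 6 and 4 reads. Of 9 annotated genes of the class 8 held reads, with 2 called higher in replicate 1, 1 in replicate 2 and 5 not called.

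Of 9 HSP70 genes, 4 were called higher in replicate 2 and none in replicate 1. The class was led by 3 genes that serve every cell. Hspa8, the constitutive cytosolic form, read at 781 and 882 CPM, 1.22-fold higher in replicate 2 (1.11 to 1.35, adjusted p = 0.000606). Hspa9, mortalin of the mitochondrial matrix, stood at 323 and 388 CPM, 1.30-fold higher in replicate 2 (1.12 to 1.51, adjusted p = 0.00496). Hspa5, the BiP of the endoplasmic reticulum, stood at 258 and 230 CPM and was not called (adjusted p = 0.932). Total-read scaling ended the calls of Hspa8 and Hspa9.

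The stress-inducible twins Hspa1a and Hspa1b showed the largest differences of any called member. Hspa1a held 5 reads in replicate 1 and 24 in replicate 2 (4.47 and 24.6 CPM), a 5.96-fold higher level in replicate 2 (2.23 to 20.0, adjusted p = 0.000784). Hspa1b held 4 and 21 reads (3.58 and 21.5 CPM), 6.51-fold higher in replicate 2 (2.20 to 26.1, adjusted p = 0.00130). The 2 genes lie side by side on chromosome 17, at 34969190 to 34972156 and 34956436 to 34959238 on mm10, and share 66.9% to 70.8% of their 21-base words, so reads may have been split between them and the pair counts as uncertain gene by gene. With added scatter the adjusted p values were 0.448 and 0.422. Early response genes, which also answer to handling of the tissue, summed to 199 CPM in replicate 1 and 83.0 CPM in replicate 2, with Jun and Cdkn1a called higher in replicate 1 and Zfp36 in replicate 2; their part in the result was not tested. Hspa1l, their neighbour on chromosome 17, held 16 reads in each library, Hspa2 held 12 and 18, and Hspa13 and Hspa14 held 16 reads or fewer in all.

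A copy took almost as many reads as Hspa8 itself. Gm15459, a processed pseudogene at chr5:5781615-5783555 (mm10, minus strand), was credited with 763 reads in replicate 1 and 711 in replicate 2, against 873 and 861 for Hspa8. Its 1941 bases equal the coding sequence of Hspa8, stop codon included, in length, differ from it at 5 positions (99.7% identical) and run identical for up to 672 bases. A stretch around 1 of the differences, bases 60 to 119 of the coding sequence in the strand of the mRNA, shows how little separates them, with the differing base in capitals:
Hspa8: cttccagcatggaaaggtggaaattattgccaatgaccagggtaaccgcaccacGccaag
Gm15459: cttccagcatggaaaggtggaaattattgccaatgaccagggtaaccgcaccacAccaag
With the copies added, Hspa8 would read at 1463 and 1613 CPM (1538 ± 106 CPM) and would pass Hsp90ab1 as the highest member. It would still be 1.19-fold higher in replicate 2 (1.11 to 1.28, adjusted p = 1.66e-05). Which of these reads came from Hspa8 was not tested. Hspb1 also has such a copy, and Hsp25-ps1 on chromosome 13 took 24 and 14 reads beside 100 and 61. Over the 26 pseudogene copies found for 12 members, 5 held reads, 790 in replicate 1 and 729 in replicate 2 in total.

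**Figure D3:**
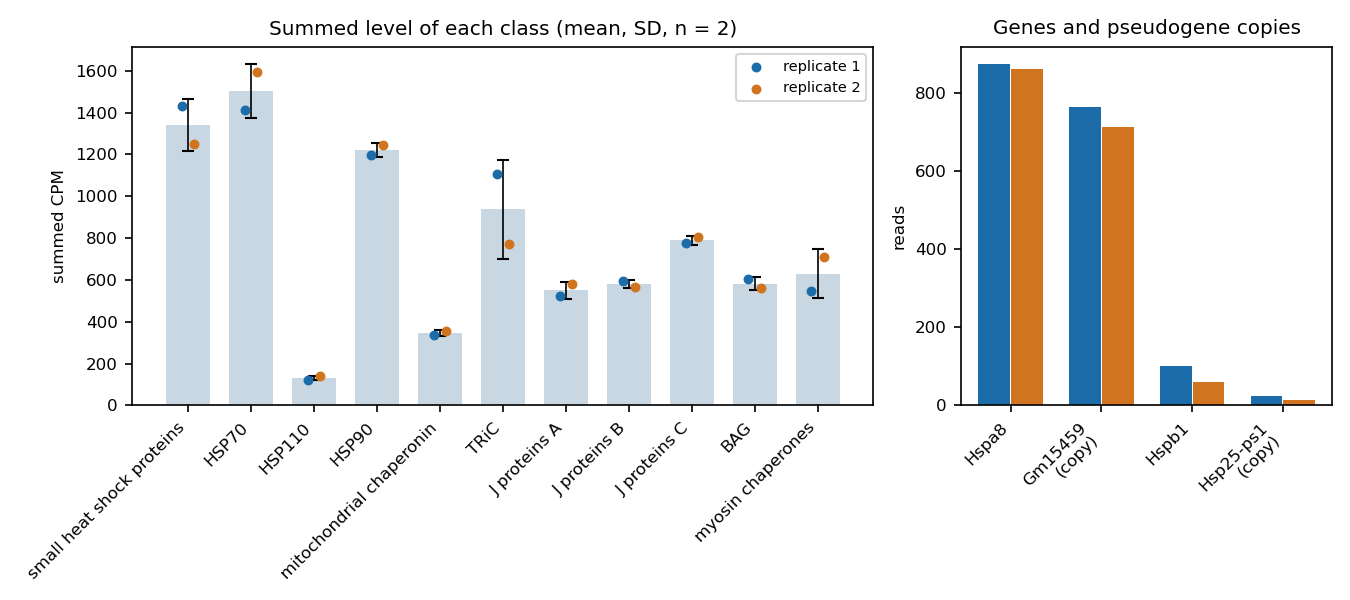
Left, summed CPM of each class as mean (bar), SD (error bar, n = 2) and each library (points); TRiC shows the widest gap, 1106 against 770 CPM. Right, reads of Hspa8, Hspb1 and their pseudogene copies in both libraries; Gm15459 comes close to Hspa8.

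HSP110 proteins, large relatives of HSP70 that act as its exchange factors, were scarce. Hsph1 read at 59.0 and 71.7 CPM, Hspa4 at 61.7 and 60.5 CPM and Hspa4l at 3 and 7 reads, and none was called.

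Hsp90ab1, the constitutive cytosolic HSP90, was the highest member and ranked 63 among all genes. It read at 1107 and 1177 CPM, 1.15-fold higher in replicate 2 (1.06 to 1.25, adjusted p = 0.00836), a difference lost with total-read scaling. Hsp90b1, the GRP94 of the endoplasmic reticulum, held 68.9 and 46.1 CPM and Hsp90aa1, the inducible cytosolic form, held only 22.4 and 23.6 CPM; neither was called. In both HSP70 and HSP90, the inducible forms thus read lower than their constitutive relatives in each library.

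The chaperonin of mitochondria is built of Hspd1 (HSP60) and its lid Hspe1 (HSP10), 2 genes transcribed away from each other on chromosome 1. Hspd1 read at 243 and 287 CPM, 1.28-fold higher in replicate 2 (1.08 to 1.51, adjusted p = 0.0381). Hspe1 read at 93.9 and 68.7 CPM and was not called. The log2 ratios were thus of opposite sign, at -0.35 for Hspd1 and 0.34 for Hspe1. The interval of the Hspe1 ratio ran from -0.12 to 0.80, so its direction was not settled. With the length trend, the log2 ratio was -0.39 for Hspd1 and 0.02 for Hspe1. The call of Hspd1 was lost under 4 of 9 alternatives.

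RefSeq promoters (GRCm38.p6, 250 bases before to 50 after each start) matched 62 of the 78 genes and were searched on both strands. The remaining members, Hspa8, Hsp90ab1, Cryab and Hspb2 among them, had no matched promoter and were not searched. The heat shock element was written as GAANNTTCNNGAA or TTCNNGAANNTTC, 3 inverted units of the site bound by heat shock factors. It was present in the promoters of Hspd1, Hspe1, Dnajb6 and Hsph1, against 0.662% of all 27025 genes in the table. The endoplasmic reticulum stress element, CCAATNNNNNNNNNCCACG or its reverse complement, was present for Hspa5, Hsp90b1 and Dnajc3, against 0.137% of all genes. The elements are shown with up to 5 bases on each side, 5′ to 3′ on the strand of the gene, with the fixed letters in capitals, because the 2 sets belong to different compartments:
Hspd1 and Hspe1 shared stretch, chr1:55088054-55088081, strand of Hspd1: gggccTTCcgGAAggTTCtaGAAcggac
Dnajb6, chr5:29735847-29735869: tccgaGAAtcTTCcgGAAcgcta
Hsph1, chr5:149636283-149636305: gcagaTTCtgGAAagTTCtcctc
Hspa5, chr2:34772020-34772048: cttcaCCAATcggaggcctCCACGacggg
Hsp90b1, chr10:86705633-86705661: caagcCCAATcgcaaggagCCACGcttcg
Dnajc3, chr14:118937822-118937850: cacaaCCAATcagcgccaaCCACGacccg
The Hspd1 and Hspe1 stretch holds 2 overlapping matches of the heat shock element and lies before the RefSeq starts of both genes, 144 and 89 bases away. In GENCODE it falls within an exon of Hspd1-202, and the elements of Dnajb6, Hsph1 and Hspa5 likewise fall within an annotated exon of at least 1 isoform of the gene, and the Hsp90b1 promoter holds a second match on the other strand. A shorter form with 2 units, GAANNTTC or TTCNNGAA, which every 3-unit match contains, was found for 18 of 62 members and 17.0% of all genes, Hspa1a, Hspa1b, Hspb1, Hspb8 and Bag3 among them. The CCAAT box, which the stress element contains, was found for 25 of 62 members and 41.1% of all genes. Of the genes with the 3-unit heat shock element only Hspd1 was called, and of those with the stress element none.

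All 7 TRiC subunits measured had log2 ratios above 0, from 0.18 to 1.13 with a median of 0.34. Over all genes tested, 4184 of 8394 lay above 0. Cct2 was called, at 133 and 56.4 CPM, 2.18-fold higher in replicate 1 (1.59 to 3.03, adjusted p = 9.48e-06). The highest subunits were Cct7 with 269 and 194 CPM (adjusted p = 0.0591), Cct5 with 174 and 131 CPM, Tcp1 with 173 and 126 CPM, and Cct8 with 146 and 110 CPM. TRiC rings hold 1 copy of each subunit, and yet the transcripts ranged in mean level from 68.6 CPM for Cct3 to 231 CPM for Cct7. Total-read scaling also called Cct7 (adjusted p = 0.00573) and Cct3 (adjusted p = 0.0274), a minimum of 20 reads in each library called Cct7, and Known, NIC and NNC reads alone, the classes defined with the isoforms below, called Cct3. With the length trend, 7 of 7 subunits still lay above 0 with a median of 0.31. Cct6a, outside the rule, stood at 158 and 151 CPM, with a scaled log2 ratio of -0.04 (adjusted p = 0.974), so its direction turned with the scaling.

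J proteins carry the domain that starts the ATP cycle of HSP70. The 4 Dnaja genes held Dnaja2 (256 and 221 CPM), the mitochondrial Dnaja3 (158 and 149 CPM), Dnaja4 and Dnaja1 (33.1 and 42.0 CPM). Dnaja4 alone was called, with 83 and 164 reads (74.2 and 168 CPM), 2.45-fold higher in replicate 2 (1.87 to 3.23, adjusted p = 5.55e-10). It was 1 of 12 members called higher in replicate 2, Hspa1a and Hspa1b among them, against 3 called higher in replicate 1. Among the 9 Dnajb genes with reads none was called. The highest were Dnajb12 of the endoplasmic reticulum membrane (133 and 148 CPM), Dnajb6, whose mutations cause a limb-girdle muscular dystrophy (102 and 114 CPM), Dnajb5 (97.5 and 77.9 CPM) and Dnajb2 (72.5 and 75.8 CPM). Dnajb1, the heat-inducible partner of Hspa1a, held only 13 and 8 reads.

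The Dnajc genes were many and mostly low, with 25 of 28 holding reads. Dnajc19 of the mitochondrial import motor led with 109 and 100.4 CPM, followed by Dnajc21 of ribosome assembly (94.8 and 91.2 CPM), Dnajc8 (72.5 and 55.3 CPM) and Dnajc11 (49.2 and 52.3 CPM). Of 23 tested, 2 were called, both higher in replicate 2. Dnajc27 held 38 and 65 reads (34.0 and 66.6 CPM), 2.12-fold higher (1.40 to 3.26, adjusted p = 0.00342). Dnajc10, a disulfide reductase of the endoplasmic reticulum, held 39 and 58 reads (34.9 and 59.4 CPM), 1.85-fold higher (1.21 to 2.84, adjusted p = 0.0293). The transcripts are 4698 and 4042 nt long, and neither call held with the length trend.

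Bag1 was the highest BAG gene at 318 and 241 CPM and was not called (adjusted p = 0.115). Bag6, which guards tail-anchored and newly made membrane proteins, read at 112 and 151 CPM, 1.46-fold higher in replicate 2 (1.14 to 1.87, adjusted p = 0.0234). Bag3, the partner of Hspb8 and Hspa8 in chaperone-assisted autophagy, stood at 112 and 115 CPM and was not called, while Hspb8 itself was called higher in replicate 1. Bag5 held 36.7 and 19.5 CPM, and Bag2 and Bag4 were lower.

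Unc45b, which folds the myosin head during assembly of thick filaments, was the fifth highest member. It read at 298 and 435 CPM, 1.58-fold higher in replicate 2 (1.37 to 1.83, adjusted p = 1.84e-08), and its call held with the length trend (adjusted p = 0.000152). Smyd1, a methyltransferase that works with Unc45b on myosin, read at 249 and 277 CPM and was not called (adjusted p = 0.166).

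Partner genes were taken from lists of the same pathways. Their counts of calls stand beside 4.61% of all genes tested called higher in replicate 1 and 7.06% in replicate 2. Calls and medians of these lists take no account of the length trend. Of 19 HSP90 cochaperones, 2 were called, both higher in replicate 1: Fkbp5, an immunophilin that answers to glucocorticoids, with 95 and 33 reads, and Nudc with 132 and 70. Fkbp4 was the highest of that list at 213 and 207 CPM, and the list's median log2 ratio was 0.04. Of 10 tested genes of the HSP70 list, 1 was called, Tsc22d3, higher in replicate 2 with 462 and 573 CPM. Tsc22d3 is known as GILZ, a glucocorticoid-induced regulator of transcription and not an HSP70 cochaperone, and none of the other genes of the list was called. Of the heat shock factor list, 0 of 4 tested genes were called, and Hsbp1 was highest with 151 and 101 CPM. The medians of these lists were 0.06 and 0.34.

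In the endoplasmic reticulum list, 15 of 16 tested genes lay above 0 (median 0.27), beside 4184 of 8394 over all genes tested, and 2 were called, both higher in replicate 1. These were the transcription factors Xbp1 (307 and 150 reads) and Atf4 (62 and 22 reads), while P4hb was highest. In the mitochondrial list (median -0.25), 2 of 11 were called, both higher in replicate 2, the disaggregase Clpb (128 and 157 reads) and the protease subunit Afg3l2 (146 and 165 reads); Lonp1 was highest. Of 12 tested prefoldin and tubulin-folding genes (median 0.49) 1 was called, Pfdn2, with 77 and 23 reads, and Pfdn1 was highest.

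Chaperone-assisted autophagy had 5 of 11 genes called, 3 higher in replicate 1 and 2 in replicate 2 (median 0.25). The part of read depth in this count was not tested. Sqstm1, the p62 receptor, read at 435 and 263 CPM, and Map1lc3a and Ubqln1 were also called higher in replicate 1. The Z-disc proteins Flnc (136 and 189 CPM) and Synpo2 (369 and 418 CPM), clients and partners of Bag3, were called higher in replicate 2, and Vcp was highest. In the last list, of other proteins against aggregation (median 0.39), 2 of 10 were called, Park7 higher in replicate 1 (817 and 578 CPM) and Bag6, a member named above. None of these partner genes was called with added scatter. Transcripts of Flnc and Synpo2, higher in replicate 2, are 8939 and 8121 nt long. Those of Map1lc3a and Park7, higher in replicate 1, are 1112 and 908 nt. Ubqln1 (3561 nt) and Fkbp5 (3543 nt) went against that order, being long and higher in replicate 1. The part of length in the differences of these lists was not tested.

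Isoforms were compared as chains of introns among Known reads and reads with an unannotated combination of annotated splice sites (NIC) or an unannotated site (NNC). At least 20 such reads per library were held by 50 members, and 0 of them differed in the share of the leading isoform by Fisher's exact test with adjustment over 3521 genes, of which 0.454% were called. One member, Dnajc14, had an unadjusted p under 0.05. The leading isoform held a median of 94.5% of reads in members and 89.8% over all genes compared. In 48 of 50 it was an annotated protein-coding isoform, and in 35 it held over 90%.

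Smyd1 was read in 2 coding forms. Of reads that crossed the site, 41.1% (95% Wilson interval 34.8 to 47.7, 90 of 219) in replicate 1 and 46.1% (39.7 to 52.5, 105 of 228) in replicate 2 held a 39-nt coding exon, chr6:71235343-71235381 on the minus strand. The exon gives Smyd1-201 its 490 residues against 477 in Smyd1-202, and keeps the reading frame. In Dnaja3, a 117-nt exon at chr16:4705844-4705960 was held by 29.3% of crossing reads in replicate 1 (23.0 to 36.6, 49 of 167) and 26.1% in replicate 2 (19.5 to 33.8, 37 of 142). The coding sequence ends within it, with 480 residues in Dnaja3-201 against 453 in Dnaja3-202. Dnajb2 led with Dnajb2-210 (21 and 17 reads, 324 residues), ahead of Dnajb2-207 (15 and 15 reads, 277 residues), which splices out part of the last exon of the longer form. Dnajb6-201, with 365 residues, held 75 of 101 and 70 of 94 reads, and Dnajb6-203, the short form of 242 residues, 13 in each library. Dnajb6-201 also has stretches of 321 and 80 coding bases that Dnajb6-203 lacks, which are not shown. Other stretches that code in 1 form and are absent from its pair are shown 5′ to 3′:
Smyd1-201, chr6:71235343-71235381: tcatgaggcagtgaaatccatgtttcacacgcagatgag
Dnaja3-201, chr16:4705844-4705944: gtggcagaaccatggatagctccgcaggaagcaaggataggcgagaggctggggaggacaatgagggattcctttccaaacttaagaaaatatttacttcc
Dnajb2-210, chr1:75243662-75243810: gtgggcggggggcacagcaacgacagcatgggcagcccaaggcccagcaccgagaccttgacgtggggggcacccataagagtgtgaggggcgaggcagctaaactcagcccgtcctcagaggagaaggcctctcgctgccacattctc
Dnajb6-203, chr5:29766396-29766427: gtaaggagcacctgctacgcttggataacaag
No letters are in capitals in these stretches, each of which is coding in full. For Smyd1 and Dnaja3, the share in each library lay within the interval of the other.

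**Figure D4:**
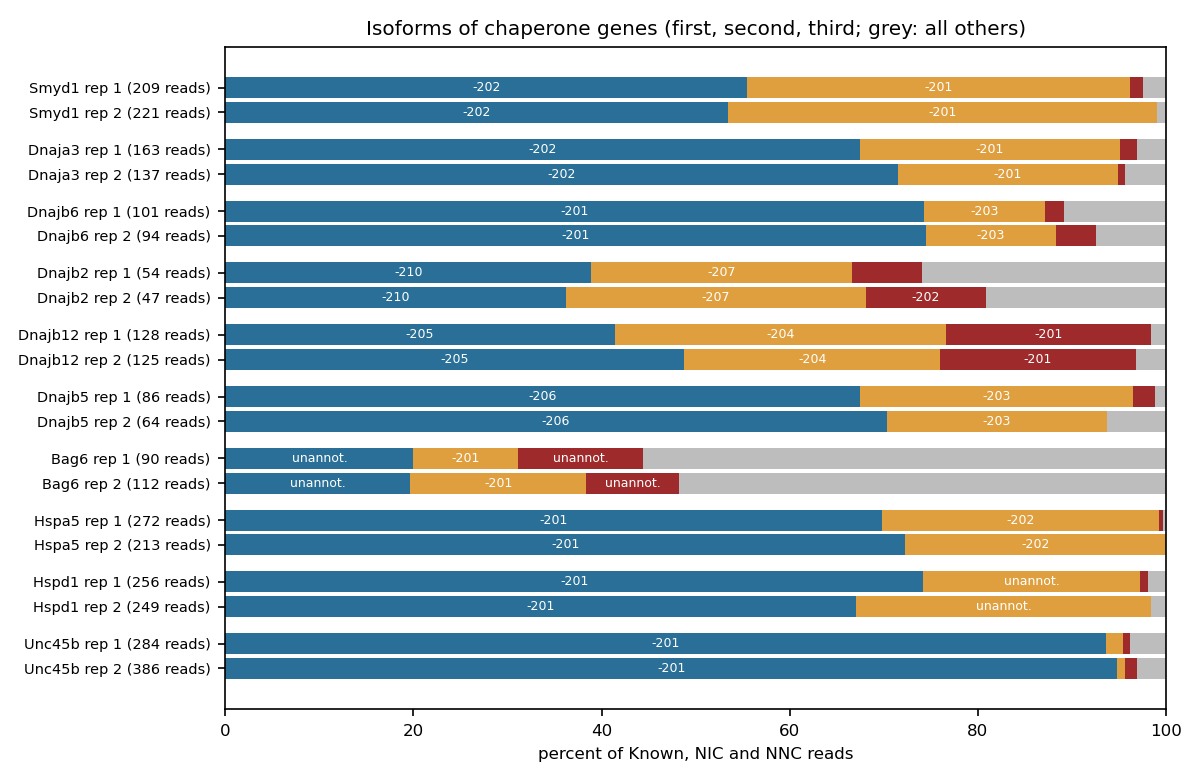
Percent of Known, NIC and NNC reads in the leading isoform (blue), the next (yellow) and the one after (red) of 10 members in each library, with all others in grey and the number of reads on the axis. Bars of the same gene are alike in both libraries, and Bag6 is the most divided.

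Dnajb12 used 3 donor sites of 1 exon that lie within 54 nt. Dnajb12-205 (378 residues) held 53 and 61 reads, Dnajb12-204 held 45 and 34, and Dnajb12-201 held 28 and 26, the latter pair giving 376 residues each. Bag6 had the lowest share of class Known, 12.1%, among the 56 members with at least 40 reads. Its leading isoform was unannotated (18 of 90 and 22 of 112 reads) and differs from Bag6-201 (10 and 21 reads) by an acceptor 3 nt downstream, at 35142926 and not 35142923 on chromosome 17. The upstream acceptor of Bag6-201 took 40.2% (31.4 to 49.7, 43 of 107) and 43.4% (35.2 to 52.0, 56 of 129) of crossing reads. A second unannotated isoform held 12 and 11 reads. Hspd1 also had an unannotated second isoform, with 59 of 256 and 78 of 249 reads, which uses the donor of the first exon of Hspd1-202, 210 nt upstream of that of Hspd1-201 and before the start codon. That donor took 23.8% (19.0 to 29.4) and 31.7% (26.3 to 37.7) of crossing reads, shares whose intervals overlap.

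Dnajb5 led with Dnajb5-206, an isoform annotated as a retained intron without coding sequence, at 58 of 86 and 45 of 64 reads, ahead of the coding Dnajb5-203 with 25 and 15. The introns of Dnajb5-206 all lie within Dnajb5-203, which has 1 more at its 5′ end, so by introns alone a read of Dnajb5-203 cut short at that end cannot be told apart from it. By introns alone, the same holds at the 3′ end for Dnajb2-210 and Dnajb6-203, whose introns all lie within Dnajb2-207 and Dnajb6-201, and at the 5′ end for Hspa5-202 (80 and 59 reads) beside Hspa5-201 (190 and 154 reads), which code for the same 655 residues. Dnajb2-210 and Dnajb6-203 do hold 149 and 32 coding bases, shown above, that Dnajb2-207 and Dnajb6-201 lack. Matching by introns did not use those bases.

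In Dnajc5, which codes for the cysteine string protein of synaptic vesicles, Dnajc5-201 held 20 of 38 reads in replicate 1 and 25 of 33 in replicate 2, and Dnajc5-204, annotated for nonsense-mediated decay, held 8 and 2. The 75-nt exon of Dnajc5-204 was held by 32.4% (19.6 to 48.5, 12 of 37) and 12.5% (4.97 to 28.1, 4 of 32) of crossing reads, shares whose intervals overlap. Dnajb4-202 held 9 of 30 and 10 of 20 reads, beside an unannotated isoform with another donor that held 10 and 5. The leading shares of Dnajc5 and Dnajb4 were not called (unadjusted p = 0.0519 and 0.235). Bag2-201 held 8 and 18 reads beside an unannotated isoform with a further 44-nt intron, which held 10 and 8, too few for the test. The remaining members led by an unannotated isoform had few reads. Dnajc4 led with one at 10 of 17 and 5 of 8 reads, Dnajc13 with one at 4 of 5 and 6 of 12, and Hspb11 with one at 1 read in each library. Over all classes of read, Dnajc4 held 22 and 12 reads and Dnajc13 held 12 and 20, and neither was called.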

How the data were processed

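The authors deposited raw counts of long reads per transcript model, 1 table and 1 annotation per library, on mm10 with GENCODE M21 and models carrying TALON identifiers, per the file headers and the notes deposited with them. For the aligner and read filters the sources used here give nothing. Counts were summed over every model of a gene and scaled to CPM by each library's reads of annotated endogenous genes. TMM factors (1.04 and 0.961) came from edgeR 4.0.16 in R 4.3.3, and DESeq2 1.42.0 gave other size factors. The added scatter was edgeR's common dispersion (0.0622), estimated with both libraries taken as 1 group. With 1 library per side no quasi-likelihood fit was possible. Intervals and floors (3 reads) cover counting error only. Models were matched between libraries by chromosome, strand and introns. Copies were annotated pseudogenes that share at least 50% of their 21-base words with a member. Isoforms are described where the second held at least 10 reads and 10% of the total. Python 3.11.15 and scipy 1.17.1 ran the binomial and Fisher tests. These were checked on simulated counts that held counting error only, with no scatter between libraries and no length trend.

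Full values are given for the 4 highest members of each class, each called member, and members whose leading isoform is unannotated or not coding; partner genes are named if called or highest of their list. The members and lists were chosen with earlier results of these data known.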

Additional observations from a re-analysis of the deposited data

Results flagged for a closer look

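Reads on the strand opposite to a member, in unannotated models that no comparison above uses, exceeded the 3 reads that a count of 0 allows in both libraries at 3 genes. At Smyd1 they numbered 24 in replicate 1 and 12 in replicate 2, at Dnajb6 10 and 14, and at Dnajc18 9 and 7. Dnajc18 itself held 10 and 19 reads, so the opposite strand came close to the gene there.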

How the results depend on the processing

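Calls were more frequent among deeply read members. Of 24 tested members with under 50 reads in all, 2 were called, Hspa1a and Hspa1b. Of 27 with 50 to under 200 reads, 3 were called, and of 25 with 200 or more, 10. Shares over all genes at these depths were not computed, and the part of depth was not tested. The count of members called higher in replicate 1 and in replicate 2 was 6 and 6 with total reads as the scale, and 0 and 0 with added scatter, where the lowest adjusted p of a member was 0.422. Under the other 7 alternatives, these counts stayed between 2 and 4 and between 9 and 12. Sign changes of the log2 ratio were found only in tested members that were not called. With total reads they were Hspb7 (0.0932), Hspa4 (0.0296), Dnaja3 (0.0914), Dnajc21 (0.0559), Dnajc3 (0.0767), Dnajc5 (0.000761) and Dnajc9 (0.0261). With the length trend they were Hspb7 (0.0174), Hspb11 (-0.0897), Hspa4 (0.21), Dnajb9 (-0.0064), Dnajc19 (-0.34), Dnajc3 (0.29), Dnajc5 (0.26), Dnajc2 (-0.0368) and Dnajc7 (-0.0359). With Known, NIC and NNC reads alone they were Hspb7 (0.0964), Dnajc9 (0.18) and Bag3 (0.14). With these reads alone, levels fell to 7779 CPM for all members, 120.0 for HSP110, 1060 for HSP90, 319 for the mitochondrial chaperonin, 499.5 for Dnajb, 692 for Dnajc and 506 for BAG genes. With the reads of copies added, HSP70 rose to 2209 CPM and all members to 9339 CPM. For leading isoforms, 0 members were called under each of 5 settings. A pair of alternatives was chosen after the data were seen, adding the reads of pseudogene copies to the gene test and counting a chain in both libraries where either gave it a counted class. No paired analysis was possible because there is 1 group.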
